A study of Mus musculus with 10 samples.

Results

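The BCL2 family genes described here are 10 genes that decide between survival and death at the mitochondrion: Bcl2, Bcl2l1, Mcl1, Bcl2a1b, Bcl2a1d, Bcl2l11, Bbc3, Pmaip1, Bax and Bak1. They were taken by symbol from a table of read counts with 56893 genes, and all 10 were found. RNA with poly(A) tails had been sequenced from primary T and B cells of mouse spleen after CRISPR interference at Pou2f1, in which a guide RNA brings an inactive Cas9 to a promoter and blocks transcription there. Pou2f1 encodes Oct-1, a transcription factor that binds octamer motifs. The 5 groups were T cells with sgRNA-P1 and mock T cells, and B cells with sgRNA-P1, B cells with sgRNA-P2 and mock B cells. Guide P1 was directed at the P1 promoter of Pou2f1 and guide P2 at the P2 promoter. The sources used here do not give the age, sex and strain of the mice, any pooling of animals, the selection and culture of the cells, how long the guides acted or what the mock cells received.

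Proteins of this family share BH domains and act on the outer mitochondrial membrane. The survival proteins, made by Bcl2, Bcl2l1 (BCL-XL), Mcl1 and the Bcl2a1 genes, hold the effectors Bax and Bak1 in check, and the effectors open the membrane when released. BH3-only proteins such as BIM (Bcl2l11), PUMA (Bbc3) and NOXA (Pmaip1) bind the survival proteins and set the effectors free, and NOXA binds mainly the products of Mcl1 and Bcl2a1. In lymphocytes, BIM is known for the death of cells deprived of cytokines or selected against self, and PUMA and NOXA for their induction by p53. Mature T cells lean on Bcl2, which is held up by interleukin signals, and Mcl1 is needed in both lineages.

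Mouse Bcl2a1 exists in several near-identical copies on chromosome 9, which bears on how their reads can be assigned. The first 60 coding bases of Bcl2a1b and Bcl2a1d are shown because they hold 2 of the 6 differences between the copies, in capitals (GENCODE transcripts, GRCm38; chr9:89199360-89199419, plus strand, and chr9:88731660-88731719, minus strand).
Bcl2a1b: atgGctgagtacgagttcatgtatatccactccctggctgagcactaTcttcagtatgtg
Bcl2a1d: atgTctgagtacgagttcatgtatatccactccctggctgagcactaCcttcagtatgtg
Over 516 coding bases, stop codon left out, the copies were 98.8% identical, with a stretch of 217 bases that held no difference. Bcl2a1a differed from Bcl2a1b at 11 positions and from Bcl2a1d at 7. Reads that cover no difference cannot be given to one copy, so the values of Bcl2a1b and Bcl2a1d are uncertain. Their sum, a measure chosen after the data were seen, is given beside them.

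Because Oct-1 binds the octamer ATGCAAAT, the RefSeq promoter windows of the family (GRCm38.p6, 250 bases before to 50 after each start) were searched for it on both strands. Of the 10 symbols, 9 had a window, 14 windows in all, and none held the octamer, against 1.74% of 32851 windows of all genes. Pmaip1 had no window, so the search does not cover it. The first 7 letters, ATGCAAA, were found in 2 of the 14 windows and in 4.63% of all windows, a search that takes in every octamer match too. Those windows belong to near-identical gene copies, so they do not count as separate matches. They are Bcl2a1b (chr9:89199223-89199252, plus strand) and Bcl2a1d (chr9:88731827-88731856, minus strand), shown with the 7 letters in capitals. The stretches shown differ at 1 of 30 bases.
Bcl2a1b: cgctgtgacatgATGCAAAcaaaaattcca
Bcl2a1d: cgctgtgacatgATGCAAAcagaaattcca
The match starts 38 bases before the RefSeq start of Bcl2a1b and 6 bases after that of Bcl2a1d. In GENCODE it lies inside the first exon, 26 and 70 bases after the transcript start. The match is a description of letters and not of a bound site.

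Both columns of a group matched 1 library divided in a fixed proportion. They differed by less than sampling noise, so their sum was counted as 1 sample. No single comparison therefore has a replicate check. Libraries held 28118839 to 71858511 reads. Levels are CPM, the reads of a gene relative to all reads of its library scaled by TMM factors, with 95% intervals in brackets that cover counting error only. Pou2f1 itself was at 66.1 CPM with sgRNA-P1 in T cells, against 138 CPM in mock T cells. In B cells it was at 91.1 CPM with sgRNA-P1 and 86.5 CPM with sgRNA-P2, against 157 CPM in mock. Part of Pou2f1 overlaps Cd247, a T cell gene of the opposite strand, so its T cell values are uncertain. All 10 listed T cell markers together came to 4560 to 4590 CPM in the T libraries and 49.1 to 50.3 CPM in the B libraries. The 10 B cell markers came to 348 to 367 CPM in the T libraries and 19573 to 20052 CPM in the B libraries. No T marker was at 0 in a T library and no B marker in a B library. The B marker sum in mock T cells was 1.87% of that in mock B cells, and its part in the levels below was not tested.

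**Figure D1:**
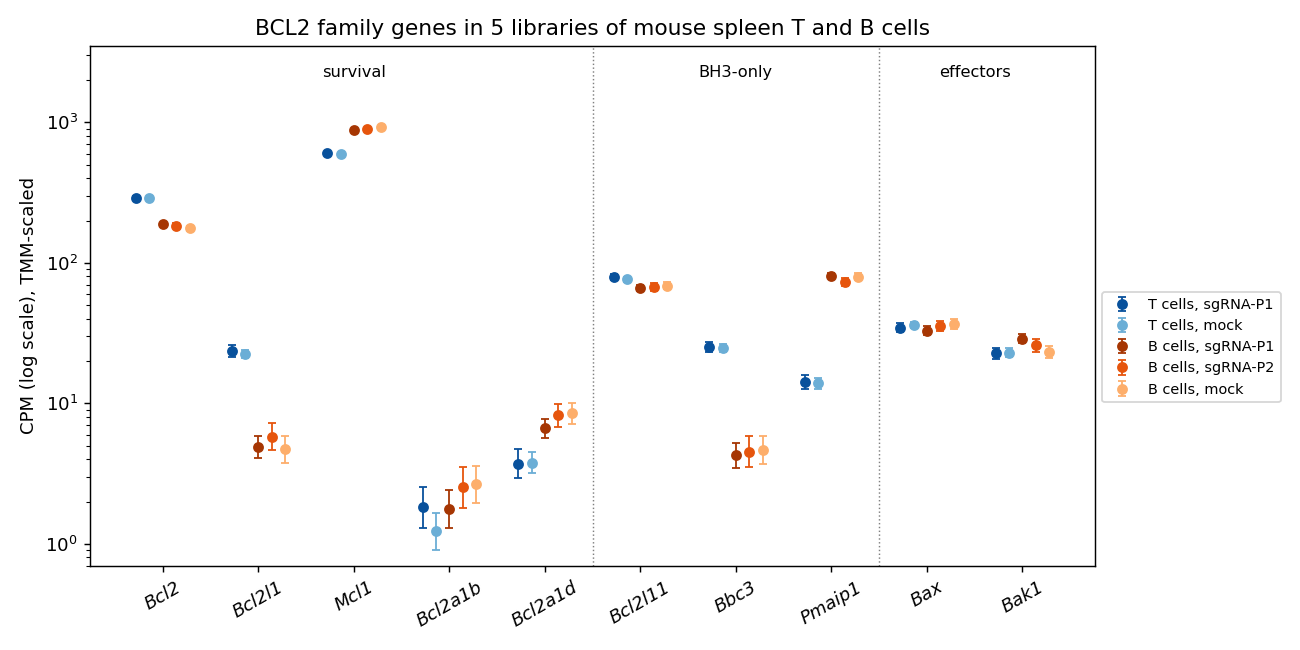
Levels of the 10 genes in each of the 5 libraries, in CPM on a log scale, with 95% counting intervals as bars. Blue points (T cells) and orange points (B cells) stand apart at Bcl2, Bcl2l1, Mcl1, Bcl2a1d, Bbc3 and Pmaip1, and by a small margin at Bcl2l11. Libraries of the same cell type lie close together.

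Mock T cells and mock B cells differed in the balance of their survival genes. Bcl2 and Bcl2l1 were higher in T cells, and Mcl1 and Bcl2a1d lower. Log2 fold changes are of mock T over mock B cells, with a prior of 1 read, and a gene was called at 1.5-fold or more among genes at 5 CPM or more in the higher library. In bulk RNA, fewer cells with a transcript and less of it per cell cannot be told apart.

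Bcl2, the founding survival gene (chromosome 1, 106465908 to 106642004, minus strand, in the deposited coordinates), was at 291 CPM with sgRNA-P1 and 289 CPM in mock T cells. In B cells it was at 188 CPM with sgRNA-P1, 184 CPM with sgRNA-P2 and 176 CPM in mock. Every T library lay above every B library. The log2 fold change between the mock libraries was 0.71 [0.66 to 0.77], or 1.64-fold. A total of 558 exon bases overlap D630008O14Rik on the opposite strand, which was at no more than 1.06 CPM in any library.

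Bcl2l1 (chromosome 2, 152622588 to 152673648, minus strand), whose main product BCL-XL guards early and activated lymphocytes, showed the widest gap among survival genes. It had 23.6 CPM with sgRNA-P1 and 22.5 CPM in mock T cells. The B libraries had 4.88 CPM with sgRNA-P1, 5.80 CPM with sgRNA-P2 and 4.73 CPM in mock. The ranges were far apart, and mock T cells were 4.73-fold above mock B cells, a log2 fold change of 2.24 [1.92 to 2.60].

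Mcl1 (chromosome 3, 95566099 to 95570487, plus strand) encodes a survival protein with a short half-life. Its levels were 601 CPM with sgRNA-P1 and 595 CPM in mock T cells, against 879 CPM with sgRNA-P1, 898 CPM with sgRNA-P2 and 930.0 CPM in mock B cells. Here every T library lay below every B library. The log2 fold change of -0.64 [-0.67 to -0.61] was just past the 1.5-fold rule.

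The Bcl2a1 copies encode survival proteins that in lymphocytes answer to NF-kB. Bcl2a1d (chromosome 9, 88605338 to 88613967, minus strand) had 3.73 CPM with sgRNA-P1 and 3.79 CPM in mock T cells, against 6.64, 8.25 and 8.48 CPM in sgRNA-P1, sgRNA-P2 and mock B cells. The groups did not overlap, and the log2 fold change was -1.16 [-1.51 to -0.82]. After a trend of fold change with transcript length and GC content was subtracted, it was -0.42 and no longer past 1.5-fold. Bcl2a1b (chromosome 9, 89081262 to 89089880, plus strand) had 1.83 and 1.23 CPM in sgRNA-P1 and mock T cells, against 1.76, 2.52 and 2.66 CPM in sgRNA-P1, sgRNA-P2 and mock B cells. These ranges overlapped, and the gene stayed under 5 CPM in every library, so it was not called. Summed over Bcl2a1a, Bcl2a1b and Bcl2a1d, the reads gave 5.68 and 5.13 CPM in sgRNA-P1 and mock T cells. The B libraries gave 8.51 CPM with sgRNA-P1, 10.8 CPM with sgRNA-P2 and 11.3 CPM in mock. The log2 fold change of the sum between the mock libraries was -1.13 [-1.44 to -0.84]. With the same trend subtracted, Bcl2a1b was at -0.31, against -1.11 before, and the sum was not run with that setting.

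The largest gap between the mock libraries in each direction was at a BH3-only gene. Bbc3, which encodes PUMA, was 5.30-fold higher in mock T cells, and Pmaip1, which encodes NOXA, was 5.75-fold lower. Bcl2l11, which encodes BIM, differed little. The counting interval of Bbc3 overlapped that of the survival gene Bcl2l1. With the length and GC trend subtracted, Bcl2l1 (2.09) was above Bbc3 (1.93) on the log2 scale.

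Bbc3 (chromosome 7, 16042318 to 16052130, plus strand) had 25.2 CPM with sgRNA-P1 and 24.9 CPM in mock T cells. In B cells it had 4.27 CPM with sgRNA-P1, 4.52 CPM with sgRNA-P2 and 4.67 CPM in mock. Within each cell type the libraries differed by less than their counting intervals. The log2 fold change was 2.41 [2.08 to 2.77], above 93.9% of the genes tested.

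Pmaip1 (chromosome 18, 66591604 to 66598636, plus strand) ran the other way, with 14.3 CPM with sgRNA-P1 and 13.9 CPM in mock T cells. It reached 81.0 CPM with sgRNA-P1, 73.2 CPM with sgRNA-P2 and 79.7 CPM in mock B cells. The lowest B library was far above the highest T library. Its log2 fold change of -2.52 [-2.67 to -2.37] was the lowest in the family, and 6.13% of all tested genes were lower still.

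Bcl2l11 (chromosome 2, 127967958 to 128004467, plus strand) was at 79.8 CPM with sgRNA-P1 and 76.2 CPM in mock T cells. Its B cell levels were 66.5 CPM with sgRNA-P1, 67.0 CPM with sgRNA-P2 and 68.5 CPM in mock. The T libraries were above the B libraries by a small margin, with a log2 fold change of 0.15 [0.05 to 0.25]. With the length and GC trend subtracted, that value was 0.05.

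The effector genes, whose products open the outer membrane, were near equal in the mock libraries. Bax (chromosome 7, 45111121 to 45116322, minus strand) had 34.6 and 36.1 CPM in sgRNA-P1 and mock T cells, against 32.9, 35.5 and 36.7 CPM in sgRNA-P1, sgRNA-P2 and mock B cells. The ranges overlapped, and the log2 fold change between the mock libraries was -0.02 [-0.16 to 0.12]. Bak1 (chromosome 17, 27238784 to 27247983, minus strand) had 22.7 and 23.0 CPM in sgRNA-P1 and mock T cells, against 28.9, 25.9 and 23.1 CPM in sgRNA-P1, sgRNA-P2 and mock B cells. The mock libraries differed by less than counting error, with a log2 fold change of -0.01 [-0.19 to 0.16]. The higher B values were those of the guide libraries. With 1 library per group, a guide effect and a difference between libraries cannot be told apart. Bak1 shares 437 exon bases with Ggnbp1 of the opposite strand, which had 0.701 and 1.03 CPM in sgRNA-P1 and mock T cells, and 2.64, 2.38 and 2.19 CPM in sgRNA-P1, sgRNA-P2 and mock B cells. The sources used here give no strand setting for the counting, so reads of this stretch cannot be told apart.

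**Figure D2:**
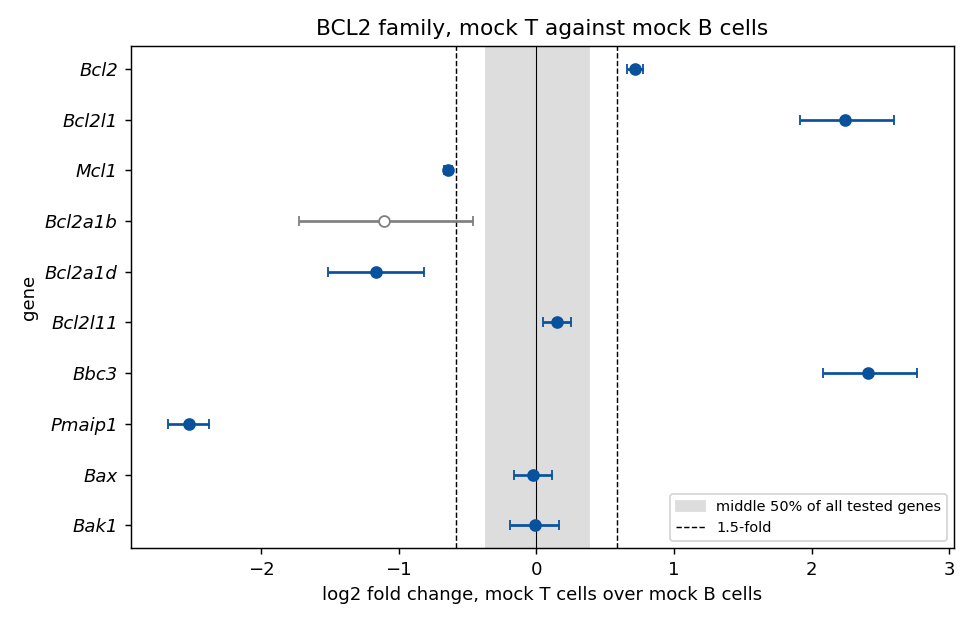
Log2 fold change of mock T over mock B cells for each gene, with 95% counting intervals; the open grey point is Bcl2a1b, under 5 CPM in both libraries. Bcl2, Bcl2l1 and Bbc3 lie right of the 1.5-fold line, Mcl1, Bcl2a1d and Pmaip1 left of it, and Bax and Bak1 near 0.

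Of the 10 genes, 9 reached 5 CPM in a mock library, and 3 of those were past 1.5-fold higher in T cells and 3 lower. By the same rule 18.6% of 10804 genes were higher and 18.4% lower, 37% in all. Counting intervals excluded 0 for 7 of the 9 genes and for 76.9% of all genes tested. Bcl2l1, Bbc3 and Bcl2a1d were at 5 CPM only in the library where they were higher, so they could pass only through the group where they were high, and the count is a description. The median log2 fold change of the 9 genes was -0.01, against 0.02 over all genes tested.

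A test across libraries was possible only by pooling. An edgeR quasi-likelihood fit over the 5 libraries, with cell type and guide (either guide or mock) as terms, left 2 residual degrees of freedom and compared 2 T with 3 B libraries. It assumes that guides act alike in both cell types and that both guides act alike in B cells. No group has a replicate library, so its p-values rest on departures from these assumptions, with estimates of spread shared across genes. They do not measure the spread between replicate libraries, and the labels do not tie the libraries to separate animals. All 10 genes passed its filter, and 7 had an adjusted p under 0.05 for cell type, where 64.2% of 17581 genes did, so the family's share was near that of all genes. In the edgeR fit the adjusted p was 1.38e-13 for Pmaip1 (log2 fold change -2.49, lower in 2 of 2 T libraries), 7.26e-12 for Bbc3 (2.47) and 6.68e-11 for Bcl2l1 (2.18). For Bcl2 (0.66), Mcl1 (-0.61) and Bcl2a1d (-1.08), edgeR gave adjusted p-values of 8.36e-09, 4.27e-08 and 1.31e-05. Bcl2l11 rose by 0.20 in T cells, with an adjusted p of 0.00454 from edgeR. Bcl2a1b (-0.62, adjusted p 0.0534), Bak1 (-0.17, 0.0957) and Bax (-0.01, 0.892) did not pass in edgeR. The 2 T libraries lay wholly above or below the 3 B libraries for 8 of the 10 genes, all but Bcl2a1b and Bax. Of 10964 genes at 5 CPM or more in their highest library, a level that Bcl2a1b does not reach, 82.7% did. Bak1 was set apart only by 23.0 CPM in mock T cells against 23.1 CPM in mock B cells, with overlapping counting intervals.

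Levels of different genes were compared per length, as TPM, in which reads are divided by the deposited exon length of the gene before scaling to the library. Mcl1 was first in every library, at 635 and 627 TPM in sgRNA-P1 and mock T cells and at 875, 915 and 940.3 TPM in sgRNA-P1, sgRNA-P2 and mock B cells. In mock T cells it was followed by Bcl2 (114 TPM), Bax (82.5 TPM), Bbc3 (42.2 TPM), Bak1 (34.4 TPM), Bcl2l11 (34.2 TPM), Pmaip1 (18.3 TPM), Bcl2l1 (17.7 TPM), Bcl2a1d (15.8 TPM) and Bcl2a1b (5.44 TPM). In that order the counting intervals of Bak1 and Bcl2l11, of Pmaip1 and Bcl2l1 and of Bcl2l1 and Bcl2a1d overlapped. In mock B cells the order after Mcl1 was Pmaip1 (101 TPM), Bax (80.4 TPM), Bcl2 (66.4 TPM), Bcl2a1d (34.0 TPM), Bak1 (33.2 TPM), Bcl2l11 (29.5 TPM), Bcl2a1b (11.3 TPM), Bbc3 (7.60 TPM) and Bcl2l1 (3.56 TPM). There the intervals of Bcl2a1d and Bak1, of Bak1 and Bcl2l11 and of Bcl2a1b and Bbc3 overlapped.

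Summed by role, the transcripts of the cell types differed in make-up. The BH3-only genes Bcl2l11, Bbc3 and Pmaip1 together came to 94.6 TPM in mock T cells and 138 TPM in mock B cells. Other BH3-only genes, among them Bid, Bmf and Bik, are not in this sum. Effectors came to 117 TPM in mock T cells and 114 TPM in mock B cells. Bbc3 made up 44.6% of the BH3-only sum in mock T cells and 5.51% in mock B cells, while Pmaip1 made up 19.3% in mock T cells and 73.1% in mock B cells. Mcl1 made up 80.4% of the survival sum in mock T cells and 89.1% in mock B cells, and Bcl2 14.6% in mock T cells and 6.29% in mock B cells. Libraries with guides lay near these shares. Mcl1 held 80.2% of the survival sum in T cells with sgRNA-P1, and 89.1% and 88.6% in B cells with sgRNA-P1 and sgRNA-P2. The survival sum was 8.24 times this BH3-only sum in mock T cells and 7.65 times in mock B cells. With guides it was 8.11 times in T cells with sgRNA-P1, and 7.23 and 7.96 times in B cells with sgRNA-P1 and sgRNA-P2. These sums are of transcripts and give no measure of protein.

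**Figure D3:**
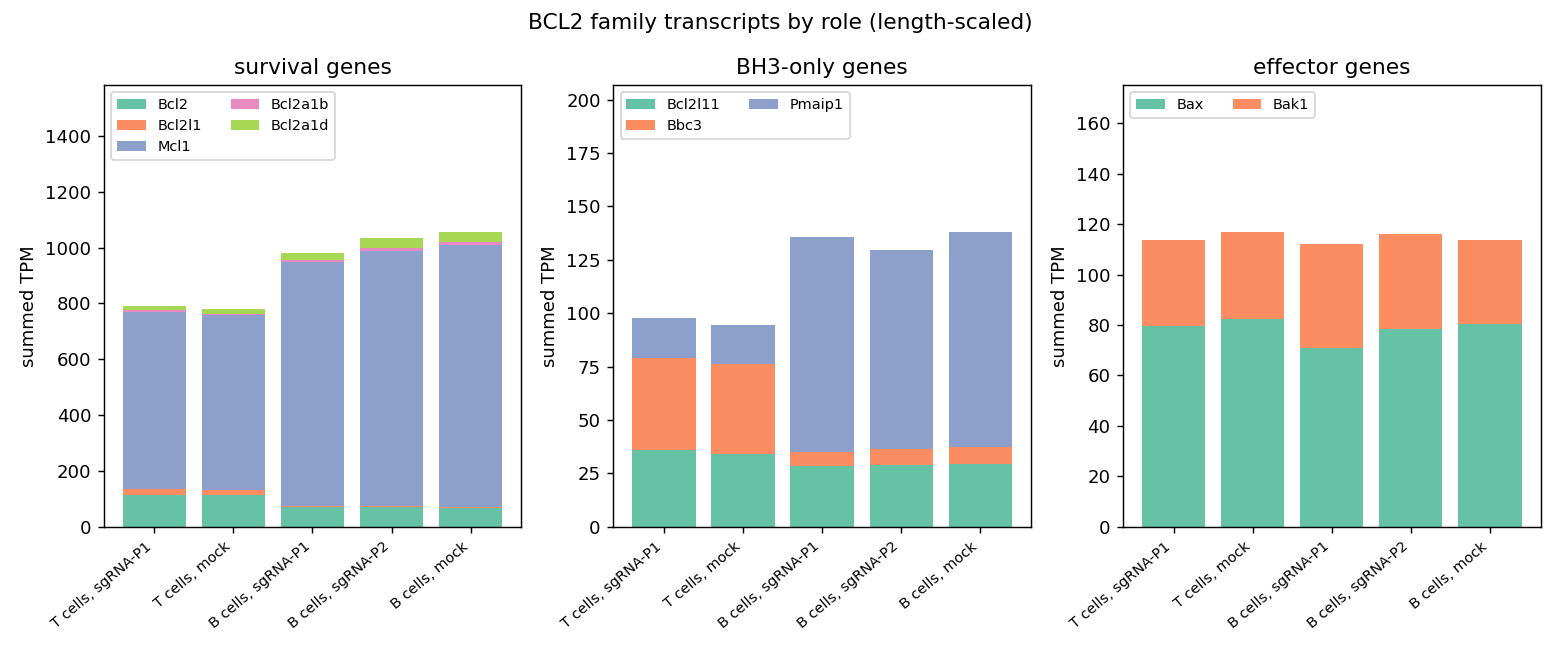
Summed TPM of survival, BH3-only and effector genes in each library, stacked by gene. Mcl1 fills most of every survival bar, the BH3-only bars are mostly Bbc3 and Bcl2l11 in T cells and Pmaip1 in B cells, and the effector bars stay between 112 and 117 TPM.

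In T cells with sgRNA-P1 against mock T cells, none of the genes was past 1.5-fold, where 0.11% of 10007 genes were (0.06% higher and 0.05% lower). At 5 CPM or more there were 8 of the 10 genes, and their log2 fold changes lay between -0.06 (Bax) and 0.07 (Bcl2l1), with a median of 0.01 against -0.02 over all genes. Mcl1 was at 0.01 [-0.02 to 0.04] and Bcl2 at 0.01 [-0.03 to 0.06], so at this depth the counting intervals hold both within 5% of mock. Bcl2l11 was at 0.07 [-0.02 to 0.16], Bbc3 at 0.02 [-0.14 to 0.18] and Pmaip1 at 0.04 [-0.17 to 0.25]. No counting interval of the 8 excluded 0, while that of 14.8% of all tested genes did. Bcl2a1b, under 5 CPM in both libraries, had 73 reads with sgRNA-P1 and 89 reads in the deeper mock library, a log2 fold change of 0.57 [-0.10 to 1.23].

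In B cells with sgRNA-P1 against mock B cells, the largest values were Bak1 higher and Bcl2a1d lower, and again none of the 7 genes at 5 CPM or more was past 1.5-fold, as 0.735% of 10062 genes were (0.477% higher and 0.258% lower). Bak1 had 28.9 CPM [26.9 to 31.2] in sgRNA-P1 cells against 23.1 CPM [20.9 to 25.6] in mock cells. This log2 fold change of 0.32 [0.14 to 0.50] was above 96.9% of genes. Bcl2a1d had 6.64 CPM [5.65 to 7.75] in sgRNA-P1 cells against 8.48 CPM [7.18 to 10.02] in mock cells, a log2 fold change of -0.35 [-0.69 to -0.02]. Its sum with the other Bcl2a1 copies was lower by a like amount, -0.41 [-0.70 to -0.12]. Bcl2a1b was at -0.59 [-1.21 to 0.06], beyond 1.5-fold but under 5 CPM and with an interval that reaches 0.

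Other members moved less in this library. Bcl2 was at 0.10 [0.03 to 0.16], Mcl1 at -0.08 [-0.11 to -0.05] and Bax at -0.16 [-0.31 to -0.00], which are differences of 1.11-fold or less. Bcl2l11 (-0.04), Pmaip1 (0.02), Bbc3 (-0.13) and Bcl2l1 (0.04) had intervals that included 0. Counting intervals excluded 0 for 5 of the 7 genes and for 33.2% of all tested genes, and they do not hold the variation between cultures. Across genes, fold changes in this comparison were lower at higher GC content (Spearman's rho -0.50 over 9703 genes of these 2 libraries). With the length and GC trend subtracted, Bak1 was at 0.42, Bcl2a1d at -0.35, Bax at -0.03 and Bcl2 at 0.05.

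B cells with sgRNA-P2 were set against the same mock library, so this comparison shares its mock sample with the last. None of the 8 genes at 5 CPM or more was past 1.5-fold, where 0.278% of 10061 genes were (0.129% higher and 0.149% lower). Bcl2l1 was highest, at 0.29 [-0.16 to 0.77] on 163 reads with sgRNA-P2 and 160 reads in the deeper mock library. Bak1 was at 0.16 [-0.05 to 0.37], with 25.9 CPM with sgRNA-P2 and 23.1 CPM in mock. Pmaip1 was at -0.12 [-0.24 to -0.00] and Mcl1 at -0.05 [-0.08 to -0.02], and these 2 of 8 genes had intervals that excluded 0, against 11.5% of all tested genes. Bcl2 (0.06), Bcl2a1d (-0.04), Bcl2l11 (-0.03), Bax (-0.05), Bbc3 (-0.05) and Bcl2a1b (-0.07) had intervals that included 0.

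**Figure D4:**
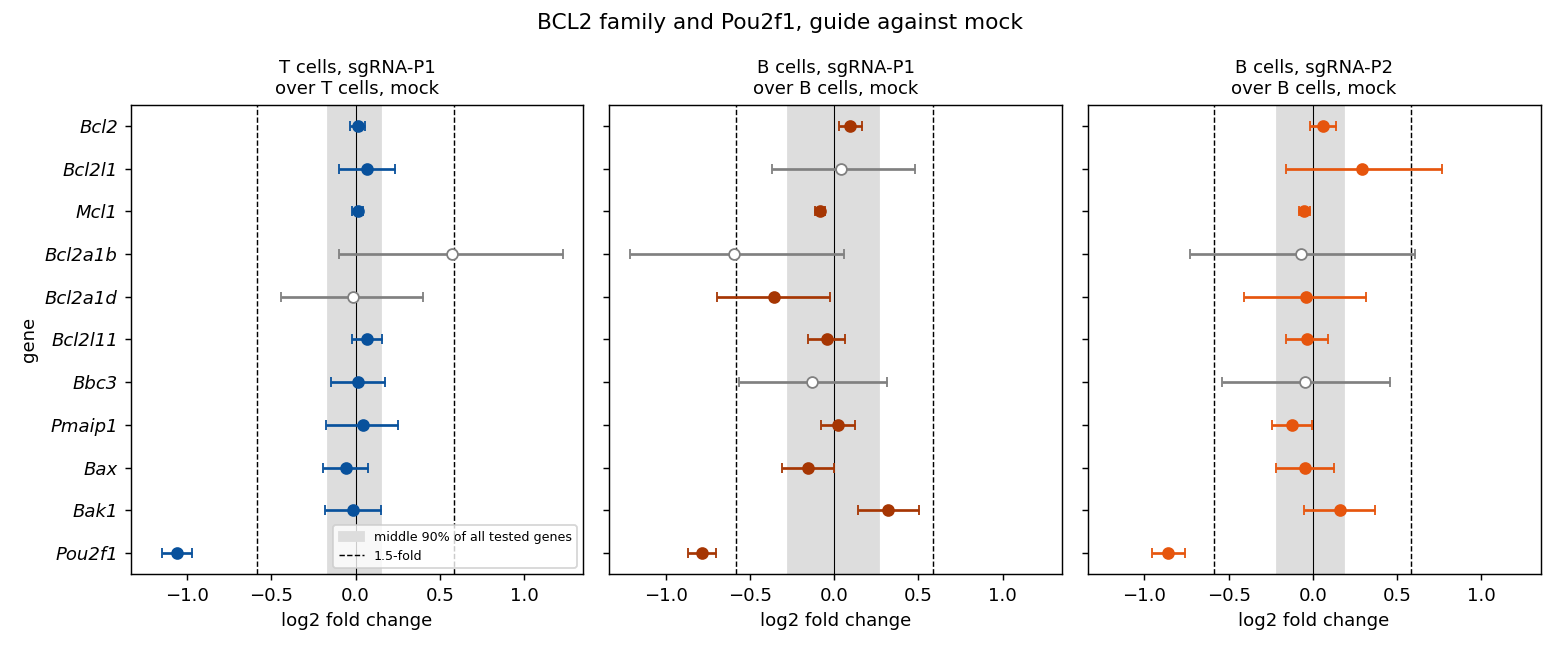
Log2 fold changes of each guide library over the mock library of its cell type, with 95% counting intervals; open grey points are genes under 5 CPM in both libraries. Pou2f1 lies left of the 1.5-fold line in all 3 panels, while every gene of the family at 5 CPM or more lies between the lines.

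The guides were also set against each other in B cells. None of the 8 genes at 5 CPM or more was past 1.5-fold, where 0.418% of 10059 genes were (0.298% higher and 0.119% lower). With sgRNA-P1 against sgRNA-P2, Pmaip1 was at 81.0 CPM and 73.2 CPM, a log2 fold change of 0.14 [0.03 to 0.25], and it was the 1 gene of the 8 whose interval excluded 0, against 23.2% of all tested genes. Bak1 was at 0.16 [-0.02 to 0.35], Bcl2a1d at -0.32 [-0.67 to 0.04] and Bcl2l1 at -0.25 [-0.67 to 0.17]. The Bcl2a1 copies summed were at -0.34 [-0.66 to -0.03]. Here too fold changes across genes were lower at higher GC content (Spearman's rho -0.45 over 9700 genes). With the length and GC trend subtracted, Pmaip1 was at 0.08, Bak1 at 0.23, Bcl2a1d at -0.33 and Bcl2l1 at -0.19.

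For the guide term of the fit over 5 libraries, which sets 3 guide libraries against 2 mock libraries within cell type, none of the 10 genes had an adjusted p under 0.05. All 10 adjusted p-values from edgeR were 0.9996, none of the unadjusted p-values was under 0.05, and DESeq2 called none of the 10 either. Of all 17581 genes, 0.0284% passed, 0.0171% higher and 0.0114% lower with a guide. Bak1 had the largest log2 fold change of the guide term, at 0.13 with an unadjusted p of 0.150 from edgeR, and was higher in 2 of the 3 guide libraries.

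Other genes of the apoptosis pathway were taken as 5 lists with 60 genes. Of the 10 death receptor genes, all at 5 CPM or more in a mock library, 7 were past 1.5-fold higher in mock T cells and 0 lower, where 18.6% of all genes were higher and 18.4% lower. The median log2 fold change was 1.45, against 0.02 over all genes. Fasl, Tnfrsf1a and Tnfrsf10b reached 5 CPM only in mock T cells, so the count and median are a description. The TNF receptor gene Tnfrsf1a had 43.9 CPM in mock T cells and 3 reads in mock B cells, a log2 fold change of 8.54 [6.68 to 11.58]. Fasl, the ligand of the death receptor Fas, had 637 reads in mock T cells and none in mock B cells. Taking 3 reads as the floor, its mock T level was at least 99.6-fold higher. Fas itself (34.2 CPM in mock T cells against 6.71 CPM in mock B cells) and the TRAIL receptor gene Tnfrsf10b (13.0 CPM in mock T cells, 3.02 CPM in mock B cells) were higher too. The 4 NK cell markers summed to 44.7 to 45.9 CPM in the T libraries and 0.560 to 0.709 CPM in the B libraries, with 1 marker at 0 in each B library, and their part in this list was not tested.

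Of 16 other BCL2 relatives, 6 were at 5 CPM or more, and 3 of these were past 1.5-fold lower in mock T cells and 0 higher, with a median of -0.997. Over all genes 18.4% were lower and 18.6% higher, with a median of 0.02. Bmf and Bcl2l2 reached 5 CPM only in mock B cells, so these are descriptions too. In the edgeR fit over 5 libraries, which tested 11 of them, 2 were higher in T cells and 5 lower at an adjusted p under 0.05. Of all genes in that fit 32.4% were higher and 31.8% lower. The 2 relatives higher in T cells were Bik, another BH3-only gene (3.91 CPM in mock T cells against 0.207 CPM in mock B cells), and Bnip3l (137 CPM in mock T cells, 106 CPM in mock B cells), named after their values were seen. Bmf, a BH3-only gene tied to the cytoskeleton, had 1.29 CPM in mock T cells against 44.6 CPM in mock B cells, a log2 fold change of -5.10 [-5.56 to -4.67]. Bid, a BH3-only gene cut by caspases, had 22.1 CPM in mock T cells against 71.3 CPM in mock B cells. The survival gene Bcl2l2 had 4.12 CPM in mock T cells against 11.6 CPM in mock B cells, and Bcl2l12 was at -0.50 on the log2 scale.

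Genes that act after the mitochondrion had a median log2 fold change of -0.00 over the 12 at 5 CPM or more. Of these, 2 were past 1.5-fold lower in mock T cells and 1 higher, where 18.4% of all genes were lower and 18.6% higher. Cytochrome c (Cycs) stood at 0.37, while the apoptosome caspase gene Casp9 (-1.24) and Htra2, whose protease counters caspase inhibitors, (-0.84) were lower. Among 4 inhibitor-of-apoptosis genes at that level, 1 was past 1.5-fold in each direction, with a median of -0.14. Birc3, a target of NF-kB, had 127 CPM in mock T cells against 398 CPM in mock B cells, Birc6 was at 0.69, Xiap at -0.47 and Birc2 at 0.20.

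Of 15 regulators of the family at 5 CPM or more, 4 were past 1.5-fold higher in mock T cells and 2 lower, near the shares of all genes, with a median of 0.08. Il7r and Tnfrsf13c reached 5 CPM in 1 of the mock libraries only. Il7r, the receptor chain for the cytokine that sustains Bcl2 in T cells, had 643 CPM in mock T cells against 0.266 CPM in mock B cells. Tnfrsf13c, the receptor for the B cell survival factor BAFF, had 2.40 CPM in mock T cells against 292 CPM in mock B cells. Rel, an NF-kB subunit gene, had 118 CPM in mock T cells against 476 CPM in mock B cells, and Stat5b had 352 CPM in mock T cells against 155 CPM in mock B cells. Trp53, the inducer of Bbc3 and Pmaip1 named above, had 157 CPM in mock T cells against 149 CPM in mock B cells (chosen after its values were seen). In the edgeR fit over 5 libraries 54 of the 60 genes were tested, of which 24 were higher in T cells and 16 lower at an adjusted p under 0.05, against 32.4% and 31.8% of all genes. At 5 CPM or more none of the 60 was past 1.5-fold in any comparison of a guide library with mock or of the guides with each other.

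The genes whose pattern over the 5 libraries was most like that of Bbc3 were Igtp, Mex3b and Npc2, at Euclidean distances of 0.054, 0.057 and 0.059 between centred log2(CPM + 1) values, out of 10134 candidates. Nearest to Pmaip1 were Smim14, Casp1 and Sypl, at 0.055, 0.063 and 0.081. Casp1 was at 13.9 and 14.03 CPM in sgRNA-P1 and mock T cells, and at 83.1, 75.3 and 79.7 CPM in sgRNA-P1, sgRNA-P2 and mock B cells. With 5 libraries and a wide gap between cell types, the distance rests mostly on that gap.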

How the data were processed

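The deposited values are read counts per gene with exon lengths, laid out as by featureCounts. HISAT2, featureCounts and the builds hg38 and mm39 are named in the submitters' processing notes. Versions, annotation, strand setting and the treatment of reads with several matches: not given in the sources used here. Gene copies can lose or swap reads. In every group the 2 columns matched 1 count divided in a fixed proportion (within 1 read), with a mean chi-square per gene of 0.00231 to 0.00283 over genes with 20 or more reads. They were summed, leaving 1 library per group and no test within a single comparison. The groups and comparisons were taken from the labels.

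Counts were scaled by TMM factors of 0.982 to 1.015 (edgeR 4.0.16 in R 4.3.3). Log2 fold changes used a prior of 1 read, and genes at 5 CPM or more in the higher library were called at 1.5-fold. Among genes with few reads, 72.0 to 74.8% of the summed totals were odd, and so even with 1 read added back. That read was added because a count divided in 2 columns and rounded down in each loses 1 read. Even totals arise when both reads of a pair are counted. Exact Poisson and conditional intervals (95%) were therefore computed on reads divided by 2 and rounded up. They cover counting error only. The floor for 0 reads was 3 reads. The edgeR quasi-likelihood fit used the 5 summed libraries and Benjamini-Hochberg adjustment over all genes passing filterByExpr; DESeq2 1.42.0 was an alternative. The steps were tested on simulated data. All family members were named. From each other list up to 4 genes with the largest log2 fold change between mock libraries, and any past 1.5-fold with a guide, were named, with 3 genes nearest in pattern to each of the members at the extremes. Some results that this rule takes are not reported here. The members and lists were chosen with earlier results of these data known.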

Additional observations from a re-analysis of the deposited data

How the results depend on the processing

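No paired analysis was possible because the 2 columns of a group are 1 library divided, so the replicate numbers pair nothing. Of 600 values of single family genes under alternative settings, 587 stayed within the counting interval or, for the edgeR terms, kept their direction and their side of the threshold. Changing the minimum level cannot alter a fold change, and a divided column holds the same library, so many of the 600 could hardly move. The count is therefore no measure of stability. With the length and GC trend subtracted, Bcl2a1d (-0.42 in mock T against mock B cells) fell under 1.5-fold, Bcl2a1b was at -0.31, and Bcl2 (0.61), Bbc3 (1.93) and Pmaip1 (-2.36) stayed past it. Bcl2l11 fell from 0.15 to 0.05 in that comparison. In the edgeR fit Bcl2a1b passed for cell type with no filter (-0.61), without the B cell sgRNA-P1 library (-0.82) and in 1 of the divided columns (-0.66). The sign turned in 17 of the 600, all of values no larger than 0.043 on the log2 scale before the change. In the edgeR fit these were Bax for cell type with no filter (0.0011) and without the sgRNA-P2 library (0.016), and without that library also Bcl2a1b (-0.015) and Pmaip1 (0.039) for the guide term.

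Counts over all genes moved with the minimum level, and the cause was not tested. At 1 CPM, at 20 CPM and with no minimum, 6091, 2531 and 13517 genes were past 1.5-fold for mock T against mock B cells (3997 at 5 CPM), and 282, 6 and 6560 for sgRNA-P1 in T cells (11 at 5 CPM). In B cells these were 565, 15 and 6220 for sgRNA-P1 (74 at 5 CPM), 507, 2 and 7124 for sgRNA-P2 (28 at 5 CPM) and 503, 7 and 6413 between the guides (42 at 5 CPM). At 1 CPM or with no minimum, 1 family gene, Bcl2a1b, passed 1.5-fold for sgRNA-P1 in B cells. With the trend subtracted 36 genes passed for sgRNA-P1 in B cells and 23 between the guides; for sgRNA-P2 the split was 14 higher and 9 lower, against 13 and 15 before. The guide term had 5 genes at an adjusted p under 0.05, 32 with no filter, 18 without the B cell sgRNA-P1 library and 14 without the sgRNA-P2 library; the cause was not tested. Depth limits Bcl2a1b, Bcl2a1d, Bcl2l1, Bbc3, Bak1 and, with sgRNA-P1, Bax in B cells, where intervals against mock reach past 1.2-fold.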
